A study of Mus musculus with 16 samples.

Results

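Tumor CD8 T cells with high *Gzmc*, *Gzmd*, *Gzme* and *Gzmf* (Gzmc-f) were 1303 of the 8984 cell barcodes in the 4 tumor CD8+ libraries, and of 37609 barcodes in all 16 libraries of the series. They were selected on raw unique molecular identifiers (UMIs) of 18 genes: at least 20 UMIs of Gzmc-f together, at least 1 UMI of *Cd8a* or *Cd8b1*, at least 1 of *Cd3e*, *Cd3d* or *Cd3g*, fewer than 3 of the cell cycle genes *Mki67*, *Top2a*, *Birc5*, *Ube2c* and *Ccna2* together, at most 1 of the macrophage genes *C1qa*, *C1qb* and *C1qc* together, and 0 of the plasmacytoid dendritic cell gene *Siglech*. The same rule without its granzyme threshold defined 6837 gated CD8 T cells, and the 5534 of these under the threshold are called the other CD8 T cells. Levels of the 18 genes describe how the cells were chosen and carry no test.

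The mice were young adult C57BL/6 littermates, either wild type (*Aire*+/+) or without the autoimmune regulator (*Aire*-/-), a protein that drives thymic display of self antigens. They carried subcutaneous tumors of MC38, a C57BL/6-derived colon tumor line, and received repeated anti-PD1 or isotype antibody. Tumors and spleens were taken on day 19, those of several mice were pooled for each condition, and cells were sorted for CD8+ or CD45+ before droplet-based single-cell RNA sequencing. Each of the 2 genotypes was thus seen under each of the 2 antibodies, always in tumor-bearing mice, with 1 library for each group, tissue and sort; 4 values in a run give the tumor CD8+ libraries of *Aire*+/+ mice first (isotype, then anti-PD1) and of *Aire*-/- mice after them, in the same order. With 1 pooled library per group no difference between groups was tested, and the intervals given are 95% exact intervals of counting error alone.

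Granzymes are serine proteases of cytotoxic granules, which enter a target cell with the help of the pore-forming protein perforin, encoded by *Prf1*. Granzyme B is the best known of them and starts apoptosis by cleaving caspases and Bid. In the mouse the genes of granzymes B to G and N lie side by side on chromosome 14, and those of granzymes A and K lie together on chromosome 13; the targets of granzymes C, D, E and F are less well known.

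The *Aire* label could not be checked on these cells, since *Aire* had 6, 3, 1 and 0 UMIs in the 4 libraries. The sort label fitted the data: 2481, 2067, 1706 and 2056 of all 2688, 2222, 1860 and 2214 barcodes of the tumor CD8+ libraries passed the conditions on CD8, CD3, C1q and *Siglech*, against 148, 206, 203 and 701 of 2936, 2211, 1860 and 2076 in the tumor CD45+ libraries. For shares at a set depth, cells with at least 5000 UMIs were thinned to 5000 and shallower cells were left out: 7, 6, 5 and 5 Gzmc-f-high cells and 151, 94, 117 and 316 other CD8 T cells. Thinning thus changed the set of cells as well as the depth. After thinning, *Cd8a* was found in 99.7, 100, 99.7 and 98.8% of the Gzmc-f-high cells kept and *Cd8b1* in 100, 98.8, 98.7 and 100%. Both chains of CD8, whose heterodimer is the coreceptor of conventional cytotoxic T cells, were thus found in nearly all of them. *Cd3e*, which encodes a signalling chain of the T cell receptor complex, was found in 99.7, 99.7, 98.7 and 100%. The rule asked for 1 UMI of each class before thinning, so these shares describe how the cells were chosen.

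Sequencing depth differed between the cells compared. The Gzmc-f-high cells had a median of 14602, 13721.5, 13249 and 13625 UMIs and 3250, 3158.5, 3009.5 and 3115 genes, against 8707.5, 8604, 8381 and 7356 UMIs and 2415, 2444, 2357 and 2224.5 genes in the other CD8 T cells. The threshold counted raw UMIs, so deeper cells reached it more easily. Mitochondrial transcripts made up a median of 1.75, 1.76, 1.46 and 1.67% of their UMIs, against 2.33, 2.31, 1.94 and 2.12% in the other CD8 T cells. Of the 1303 cells, 2 failed a filter of 200 genes and 20% mitochondrial UMIs and were kept. A barcode sequence of 69 of them occurred in another library of the series, 11 of them in another tumor CD8+ library, and 1 sequence was that of a Gzmc-f-high cell in 2 libraries.

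Gzmc-f-high cells were 402, 334, 316 and 251 of 1902, 1727, 1443 and 1765 gated CD8 T cells, or 21.1% (19.3 to 23.0), 19.3% (17.5 to 21.3), 21.9% (19.8 to 24.1) and 14.2% (12.6 to 15.9). The share was alike in 3 libraries, with overlapping intervals, and was lowest in *Aire*-/- mice under anti-PD1. The ratio of shares for anti-PD1 over isotype was 0.649 (0.548 to 0.769) in *Aire*-/- mice and 0.915 (0.789 to 1.06) in *Aire*+/+ mice. For *Aire*-/- over *Aire*+/+ mice it was 1.04 (0.891 to 1.20) with isotype antibody, and 0.735 (0.622 to 0.869) after anti-PD1. The library with the lowest share was also that with the shallowest other CD8 T cells, and it had the most cells left out by thinning. With cells thinned to 5000 UMIs and a threshold of 10 the ratio for *Aire*-/- over *Aire*+/+ mice after anti-PD1 was 0.873 (0.737 to 1.03), an interval that includes 1, after 316 other CD8 T cells of *Aire*-/- and 94 of *Aire*+/+ mice had been left out of the shares as too shallow. The part of depth and that of the cells left out were not told apart. In the same thinned cells the ratio for anti-PD1 over isotype in *Aire*-/- mice was 0.751 (0.633 to 0.892). With a threshold of 0.2% of the UMIs of a cell, the ratio for *Aire*-/- over *Aire*+/+ mice after anti-PD1 was 0.756 (0.638 to 0.894). The lower share of *Aire*-/- mice under anti-PD1 was not seen in the second sort of the same conditions: in the tumor CD45+ libraries, where the rule found 19, 15, 22 and 74 cells among 132, 178, 167 and 612, the ratio for *Aire*-/- over *Aire*+/+ mice after anti-PD1 was 1.43 (0.816 to 2.69), and for anti-PD1 over isotype it was 0.918 (0.564 to 1.55) in *Aire*-/- and 0.585 (0.277 to 1.22) in *Aire*+/+ mice. Whether the pooled animals of a group differed among themselves could not be seen.

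**Figure D1:**
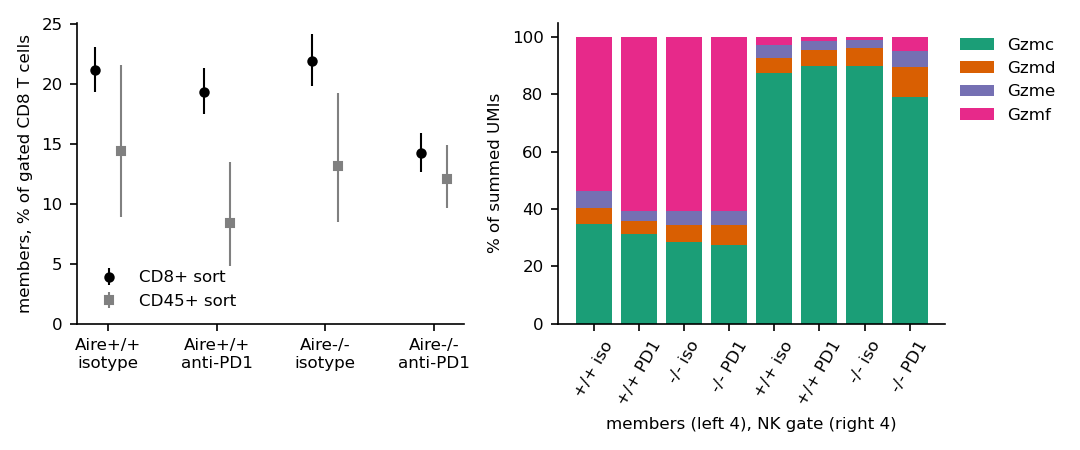
Left, share of gated non-cycling CD8 T cells that passed the Gzmc-f threshold in each tumor library, with 95% exact intervals of counting error. Right, makeup of the summed UMIs of *Gzmc*, *Gzmd*, *Gzme* and *Gzmf* in the Gzmc-f-high cells and in cells of the NK gate of the tumor CD45+ libraries.

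In the spleen libraries the rule found 0 cells among 10430 gated CD8 T cells of the CD8+ sort, so that the share was below 0.0288%, the limit that 3 counts would give. The highest sum of *Gzmc*, *Gzmd*, *Gzme* and *Gzmf* in any gated spleen cell was 2, 1, 1 and 0 UMIs in the 4 libraries. In the tumors 49.8, 52.2, 55.9 and 62.5% of the gated CD8 T cells had 0 UMIs of the 4 genes, and the Gzmc-f-high cells held 98.7, 98.4, 98.9 and 98.1% of all Gzmc-f UMIs of the gated cells. The 4 transcripts were thus near absent from spleen CD8 T cells. Among the gated CD8 T cells of tumors most of their UMIs lay in the Gzmc-f-high cells, which were chosen on these UMIs. Cycling CD8 T cells and NK cells of the tumors, described below, also carried the 4 transcripts.

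Among Gzmc-f-high cells the sum of the 4 genes had a median of 153.5, 168.5, 156.5 and 132 UMIs per cell, with quartiles of 63, 70, 60.8 and 64.5 and of 383.5, 330, 431.5 and 341 and a highest value of 3954, 1548, 4474 and 3777. It made up 2.05, 1.81, 2.43 and 1.98% of all their UMIs, against 0.0120, 0.0111, 0.0114 and 0.0110% in the other CD8 T cells. The spread within each library was thus far wider than any difference between libraries. Of the 1303 cells, 805 had 100 or more UMIs, 238 had 50 to 99 and 260 had 20 to 49, so that most stood well above the threshold. Just inside the threshold, at 20 to 24 UMIs, were 67 cells, and just outside, at 15 to 19, were another 67.

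*Gzmf* was the most abundant of the 4, with 10994, 10974, 14802 and 11993 counts per 1000000 UMIs (CPM) in the Gzmc-f-high cells and 34.4, 46.4, 39.3 and 51.2 in the other CD8 T cells. *Gzmc* followed with 7143, 5659, 6906 and 5434 CPM, against 71.1, 58.1, 59.2 and 45.0. *Gzmd* had 1131, 806, 1460.1 and 1386 CPM and *Gzme* 1217, 644, 1164 and 995, both well under *Gzmf* and *Gzmc* in every library. By cell, *Gzmf* had the most UMIs of the 4 in 865 cells, *Gzmc* in 363, *Gzme* in 43 and *Gzmd* in 32. Not every cell showed all 4 genes: 1034 cells had a UMI of both *Gzmc* and *Gzmf*, while 127 had 0 UMIs of *Gzmc*, 157 had 0 of *Gzmf*, 698 had 0 of *Gzmd* and 722 had 0 of *Gzme*. All 4 were seen in 422 cells, or 32.4%; *Gzmd* and *Gzme* are a small part of the sum, so that 0 UMIs of them does not show absence. *Gzmf* made up 53.7, 60.7, 60.8 and 60.5% of the Gzmc-f sum and *Gzmc* 34.9, 31.3, 28.4 and 27.4%, so that *Gzmf* led in all 4 libraries.

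NK cells from tumors of the same conditions carried the 4 genes in another proportion. In the tumor CD45+ libraries, barcodes with a UMI of the NK receptor gene *Ncr1*, at most 1 C1q UMI and 0 UMIs of the CD3 and CD8 genes numbered 91, 109, 133 and 216, and 52.7, 45.9, 44.4 and 36.1% of them had 20 or more Gzmc-f UMIs. In these NK cells *Gzmc* made up 87.6, 89.9, 90.0 and 79.2% of the sum and *Gzmf* 2.84, 1.25, 0.9749 and 4.90%. The ratio of *Gzmf* to *Gzmc* UMIs was 0.0324, 0.0139, 0.0108 and 0.0618 in the NK cells and 1.54, 1.94, 2.14 and 2.21 in the Gzmc-f-high CD8 T cells, with no overlap between the 2 cell types. The cells that passed the CD8 T cell rule in the CD45+ libraries, the same libraries as those of the NK cells, had ratios of 3.51, 1.54, 2.60 and 1.74. Other CD8 T cells of the CD8+ libraries had ratios of 0.483, 0.798, 0.664 and 1.14. The NK cells had been chosen with no granzyme threshold, so the ratios compare cells chosen in different ways. In NK cells of the spleen CD45+ libraries 0 had 20 or more Gzmc-f UMIs, and *Gzmf* was at 0 in each.

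Free RNA gives some UMIs in cells that do not make a transcript, and macrophages served as a gauge of it. Those of the tumor CD45+ libraries (at least 10 C1q UMIs, 0 UMIs of the CD3 and CD8 genes; 1109, 738, 512 and 180 barcodes) had a median of 14601, 14914, 14095.5 and 11562.5 UMIs and a Gzmc-f UMI in 9.02, 7.86, 20.1 and 14.4% of cells, and 1 of them had 20 or more. *Gzmf* in these macrophages had 0.403, 1.54, 2.58 and 2.24 CPM and *Gzmb* 15.8, 11.9, 6.62 and 4.02. *Gzmc* had 43.7, 3.60, 10.3 and 12.5 CPM there, against 71.1, 58.1, 59.2 and 45.0 in the other CD8 T cells of the CD8+ libraries. The threshold of 20 UMIs lay above nearly all of the macrophages. These are values of the CD45+ libraries, and the level of free RNA in the CD8+ libraries was not measured.

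Mouse granzyme genes of chromosome 14 are close paralogs, which limits how a short read can be assigned. The 7 genes lie within 144716 bases (chr14:56117619-56262334, GRCm38.p6), in the order *Gzme*, *Gzmd*, *Gzmg*, *Gzmn*, *Gzmf*, *Gzmc* and *Gzmb*, all on the minus strand. Aligned end to end, the transcripts of *Gzme* and *Gzmd* were 90.5% identical, *Gzmg* and *Gzmf* 87.9%, *Gzmf* and *Gzmc* 71.4% and *Gzmc* and *Gzmb* 50.5%. Of all 55-base windows of a transcript, 18.4% of those of *Gzmd*, 16.6% of *Gzme*, 16.8% of *Gzmg*, 5.66% of *Gzmf* and 2.62% of *Gzmc* occurred without a mismatch in another of the 7, and 0% of *Gzmb*. In the last 400 bases of the transcript the shares were 9.54% for *Gzmd*, 6.94% for *Gzme*, 15% for *Gzmg*, 7.8% for *Gzmf* and 0% for *Gzmc* and *Gzmb*. The sample records name a 3′ kit, but the study also describes a 5′ kit for RNA and T cell receptor libraries of CD45+ or CD8+ sorts. The end of the transcript that was read is thus uncertain here. By either measure, levels of *Gzmd*, *Gzme*, *Gzmf* and *Gzmg* are less certain than those of *Gzmc* and *Gzmb*.

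Genes outside the rule were compared between Gzmc-f-high and other CD8 T cells of the same library as the log2 ratio of CPM plus 10, over 9193 genes with at least 200 UMIs in all. The cells were chosen on values of the same profiles, so the comparison is a description. At least 2-fold higher in all 4 libraries were 24 genes (0.261% of those measured), 4 of them the granzymes of the rule, and at least 2-fold lower were 47 (0.511%). By any size, 19.5% of the 9193 genes were higher in all 4 libraries and 31.7% lower, and the median of the median log2 ratios was -0.04. These shares are the background for each list of genes below. Differences of 2-fold were thus few, and some were lost under other settings. With 1 CPM added in place of 10 the counts rose to 49 higher and 150 lower. With cells thinned to 5000 UMIs, and shallower ones left out, 25 genes were higher and 40 lower, among them 23 of the 24 and 36 of the 47, and of the genes named below *Cd69* and *Gbp2* fell short. With other cells limited to those of matched depth, which is a different subset, 13 genes were higher and 20 lower; of the genes named below, *Prf1*, *Irf8*, *Bnip3*, *Cd244*, *Pglyrp1*, *Spp1* and *Upp1* then no longer stood 2-fold higher in all 4 libraries, nor *Gzmk*, *Nr4a1*, *Cd69*, *Itgae*, *Itgb7*, *Pim1*, *Socs3*, *Gbp2* and *Oasl2* 2-fold lower. With 50 CPM added in place of 10 the counts were 13 and 7, and *Bnip3*, *Cd244*, *Pglyrp1*, *Upp1*, *Fcrl6* and *Gstm5* fell short, as did *Gzmk*, *Nr4a1*, *Cd69*, *Itgae*, *Pim1*, *Socs3*, *Gbp2*, *Oasl2*, *Cd7*, *Cxcr3*, *Cxcr4*, *S1pr1* and *Tcf7*. Without the deepest 5% of cells *Prf1*, *Bnip3*, *Cd244* and *Spp1* fell short, and of the lower genes *Gzmk*, *Nr4a1*, *Cd69*, *Gbp2* and *Oasl2*. *Spp1*, *Pglyrp1* and *Gbp2* also fell short at a threshold of 50 Gzmc-f UMIs, *Gbp2* at a threshold of 10 and with the 18 selection genes taken from the denominators, *Spp1*, *Nr4a1* and *Gbp2* with Gzmc-f at 0.2% of the UMIs of a cell, and *Nr4a1* and *Gbp2* after centring on the median.

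**Figure D2:**
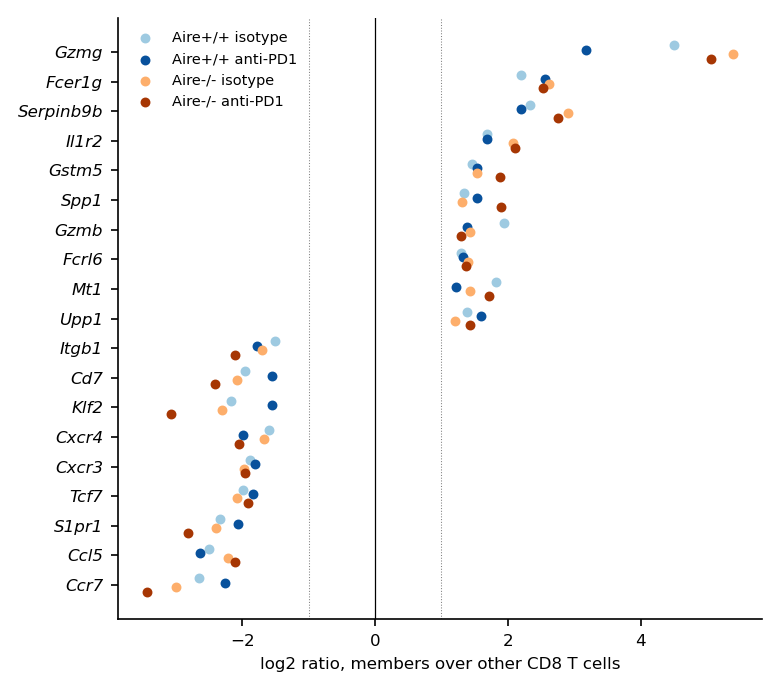
Log2 ratio of CPM plus 10 in Gzmc-f-high over other CD8 T cells in each of the 4 tumor CD8+ libraries, for genes outside the rule with the highest smallest ratio and for those with the lowest highest ratio. Dotted lines mark 2-fold.

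*Gzmg*, the neighbour of *Gzmd* in the cluster, had the highest ratio outside the rule: 227, 82.7, 425 and 332 CPM in the Gzmc-f-high cells against 0.421, 0.232, 0.392 and 0.320, log2 ratios of 4.51, 3.18, 5.39 and 5.05. It was carried by few cells. Cells with 5 or more *Gzmg* UMIs, a limit chosen after the values were seen, were 30, 12, 37 and 15 per library and held 94.1, 83.3, 96.8 and 96.6% of its UMIs. Their median Gzmc-f sum was 1081, 632.5, 792 and 916 UMIs against 131.5, 162.5, 120 and 125.5 in the rest, so that *Gzmg* lay in cells with large sums. These cells were also deeper, with a median of 22055, 20660.5, 17135 and 20332 UMIs against 14325.5, 13634.5, 12835 and 13405, and the part of depth was not tested.

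*Gzmb* rose from 1964, 2421, 2851 and 3157 CPM in the other CD8 T cells to 7548, 6365, 7706 and 7790.1 in the Gzmc-f-high cells, log2 ratios of 1.94, 1.39, 1.43 and 1.30. *Prf1*, for perforin, rose from 402, 361, 412 and 466 to 1159, 845, 1045 and 1178 CPM, log2 1.51, 1.20, 1.32 and 1.32. Both stood higher beside Gzmc-f in every library, though *Prf1* had a median log2 ratio of 0.94 against other cells of matched depth, and of 1.37 with cells thinned to 5000 UMIs. In the thinned cells, *Gzmb* was found in 96.5, 98.5, 97.4 and 98.8% of the Gzmc-f-high cells and in 60.6, 65.9, 65.0 and 72.6% of the others, and *Prf1* in 81.8, 78.7, 82.3 and 84.1% and 44.7, 48.7, 48.3 and 54.6%; in macrophages of the CD45+ libraries, thinned alike, the shares were 1.497, 0.834, 2.03 and 0.581% and 0.561, 0, 1.02 and 0%. *Gzmk*, found in memory-like CD8 T cells, went the other way, at 29.0, 44.9, 31.6 and 62.7 CPM against 81.2, 107, 105 and 158. *Nkg7*, for a granule membrane protein, was level, at log2 0.12, -0.05, 0.07 and 0.05, as was *Srgn*, for the proteoglycan that holds granzymes in the granule, at -0.01, -0.29, -0.04 and -0.14.

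*Gzma* behaved unlike the rest of the family. Its level in the Gzmc-f-high cells was 214, 649.5, 1554 and 1734 CPM, with log2 ratios over the other CD8 T cells of -1.31, 0.03, 0.70 and 0.41, so that the libraries did not share a direction. Of the cells, 18, 22, 35 and 31 had 10 or more *Gzma* UMIs (4.48% (2.67 to 6.98), 6.59% (4.17 to 9.80), 11.1% (7.84 to 15.1) and 12.4% (8.55 to 17.1)), and these held 96.5, 98.3, 99.1 and 99.3% of all its UMIs, while 364, 293, 261 and 207 cells had 0. *Gzma* was thus confined to a small part of the cells in each library. In the *Gzma* cells *Gzmc* made up 67.1, 45.0, 58.9 and 57.4% of the UMIs of *Gzmc* and *Gzmf*, against 38.6, 33.2, 28.5 and 26.5% in the rest, a shift toward *Gzmc* in all 4 libraries. They also carried more *Gzmk* (159, 323, 182 and 193 CPM against 22.8, 23.3, 14 and 43.0) and more *Ccl5* (1701, 2282, 3625 and 2062 against 419, 434, 362 and 1246). The limit of 10 UMIs and the genes set beside it were chosen after the values were seen.

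Over the whole list of granule proteases, perforin, their inhibitors and death ligands, 15 genes outside the rule were measured, of which 3 were at least 2-fold higher in all 4 libraries (*Gzmg*, *Gzmb* and *Prf1*) and 1 lower (*Gzmk*, whose median was -0.77 at matched depth). The median log2 ratio of the list was 0.12 against -0.04 over all genes. By any size, 7 were higher in all 4 libraries and 5 lower, so that the list was divided. *Serpinb9*, which encodes the inhibitor that guards a killer cell against its own granzyme B, had 430.0, 558, 537 and 552 CPM, log2 1.26, 0.72, 0.74 and 0.86, below 2-fold in 3 libraries. Its paralog *Serpinb9b* rose further, with 148, 142, 119.7 and 197 CPM against 21.3, 23.3, 7.35 and 20.6, log2 2.34, 2.19, 2.90 and 2.76.

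*Fcer1g*, for the signalling chain shared by Fc receptors and NK receptors, had 130.3, 201, 192 and 271 CPM against 20.6, 25.9, 22.7 and 38.8, log2 2.196, 2.56, 2.63 and 2.52. It too sat in a part of the cells: 36, 47, 54 and 46 cells had 5 or more UMIs and held 96.2, 96.3, 91.1 and 94.96% of the gene's UMIs. *Fcrl6*, for a receptor of cytotoxic lymphocytes, had 29.99, 29.8, 37.4 and 41.2 CPM against 6.38, 5.87, 8.04 and 9.85, log2 1.29, 1.33, 1.39 and 1.37. *Il1r2*, the decoy receptor for interleukin 1, had 287, 276, 275 and 359 CPM, log2 1.69, 1.69, 2.08 and 2.11. *Spp1*, for osteopontin, had 318, 316, 442 and 529.9 CPM, log2 1.34, 1.54, 1.31 and 1.90. In thinned cells *Il1r2* was found in 35.2, 37.2, 35.4 and 44.3% of the Gzmc-f-high cells and 10.6, 11.7, 9.21 and 10.2% of the others, *Spp1* in 15.9, 17.7, 22.8 and 28.0% and 5.63, 4.16, 7.82 and 8.10%, and *Fcer1g* in 12.2, 17.1, 25.7 and 24.4% and 3.85, 5.54, 7.33 and 6.84%. Macrophages of the CD45+ libraries also held all 3, *Il1r2* in 29.3, 34.6, 37.6 and 39.0%, *Spp1* in 44.2, 33.8, 32.7 and 16.3% and *Fcer1g* in 100% in each library, and the part of RNA from macrophages in these 3 genes was not tested. *Mt1*, for the metal-binding protein metallothionein 1, had 441, 582, 439.8 and 692 CPM, log2 1.82, 1.22, 1.43 and 1.72. *Gstm5*, a glutathione transferase gene, had log2 ratios of 1.46, 1.54, 1.54 and 1.88, and *Upp1*, for uridine phosphorylase, of 1.38, 1.59, 1.21 and 1.43. Together with *Gzmg*, *Gzmb* and *Serpinb9b*, the 7 genes of this paragraph were the 10 outside the rule with the highest smallest ratio over the 4 libraries.

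Genes of recirculating and stem-like T cells were among the lowest. *Ccr7*, the receptor that guides cells to lymph nodes, had 94.0, 146, 77.0 and 31.7 CPM in the Gzmc-f-high cells against 645, 739, 687 and 441, log2 -2.66, -2.26, -3.00 and -3.43. *S1pr1*, needed to leave tissue into lymph, had 11, 8, 5 and 2 UMIs in all Gzmc-f-high cells of a library, log2 -2.33, -2.06, -2.40 and -2.82. *Tcf7*, for the transcription factor TCF-1 of stem-like cells, had 18, 0, 4 and 5 UMIs, log2 -1.98, -1.84, -2.09 and -1.91. *S1pr1* and *Tcf7* were rare in these cells, and their ratios lean on the 10 CPM added. *Klf2*, the factor that drives *S1pr1*, had log2 ratios of -2.17, -1.56, -2.31 and -3.07. Of the 19 naive and stem-like genes measured, 7 were at least 2-fold lower in all 4 libraries, 17 were lower by any size and 0 higher, with a list median of -0.95. *Ltb*, for lymphotoxin beta, was an exception, at -0.04, 0.20, -0.03 and 0.16, while the abundant *Ly6c2* (-0.47 to -0.16) and *Il7r* (-0.52 to -0.39) fell (lowest and highest of the 4 log2 ratios in brackets, here and below).

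Several chemokine genes and receptors fell as well. *Ccl5*, a major product of effector CD8 T cells, had 477, 567, 704 and 1354 CPM against 2750.1, 3589.9, 3295 and 5869, log2 -2.50, -2.64, -2.21 and -2.11. *Cxcr3*, the receptor for interferon-induced chemokines, had 9.03, 10.7, 10.7 and 17.3 CPM against 60.04, 62.3, 71.8 and 96.2, log2 -1.88, -1.80, -1.98 and -1.96, and *Cxcr4* log2 ratios of -1.59, -1.99, -1.68 and -2.05. Against other cells of matched depth the median log2 ratio was -1.67 for *Ccl5* and -1.20 for *Cxcr4*, in place of -2.36 and -1.84. Gzmc-f-high cells were thus poor in *Ccl5* in each library. *Ccl4* fell less, at -0.93, -0.72, -1.36 and -0.88, and *Xcl1*, which draws cross-presenting dendritic cells, fell more unevenly, at -2.41, -0.92, -2.34 and -3.15. *Ifng*, for interferon gamma, stayed nearly level, with 760.0, 549, 633 and 619 CPM against 899, 554, 780.0 and 671, log2 -0.24, -0.01, -0.30 and -0.11. Of 16 cytokine and chemokine genes, 4 were higher and 10 lower in all 4 libraries, median -0.51; of 18 receptors, 6 and 9, median -0.24. *Il2rb*, the shared receptor chain for interleukins 2 and 15, was among the higher ones, at 0.60, 0.40, 0.47 and 0.31; also abundant or far from 0 were *Il2rg* (0.04 to 0.12), *Ifngr1* (-0.49 to -0.25) and *Ccr2* (-1.57 to -0.98).

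Genes of tissue residency divided. *Itgae*, for CD103, had 6.61, 7.62, 19.7 and 10.9 CPM against 32.8, 50.6, 67.5 and 134, log2 -1.37, -1.78, -1.38 and -2.78, its partner *Itgb7* log2 ratios of -1.61, -1.47, -1.71 and -1.37 and *Cd69* of -1.23, -1.04, -1.19 and -1.79. *Cxcr6*, also tied to residency, was level to slightly higher, at 0.36, 0.19, 0.15 and 0.01, and *Rgs2* higher, at 1.01, 0.83, 0.65 and 0.22; *Rgs1* ranged from -0.78 to 0.24. The list thus had 3 genes higher and 4 lower in all 4 libraries among 8. *Itgb1*, for the integrin beta 1 chain, fell as well, at -1.504, -1.78, -1.70 and -2.11, and *Cd7*, for a surface glycoprotein of T and NK cells, from 47.1, 35.5, 50.5 and 70.2 to 4.68, 5.56, 4.25 and 5.01 CPM.

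Genes of the list of inhibitory receptors and other exhaustion markers differed one from another. *Pdcd1*, for PD-1, had 844, 1083, 1026 and 921 CPM against 618, 982, 760.4 and 781, log2 0.44, 0.14, 0.43 and 0.24, and *Lag3* log2 ratios of 0.15, -0.07, 0.04 and 0.21. *Havcr2*, for TIM-3, had 234, 222, 208 and 226 CPM, log2 0.97, 0.55, 0.53 and 0.57, and *Entpd1*, for CD39, had log2 ratios of 0.96, 0.67, 0.88 and 0.64. Of those measured, *Cd244*, at 1.56, 1.53, 1.32 and 1.05, and *Pglyrp1*, for a secreted peptidoglycan-binding protein, at 1.04, 1.08, 1.10 and 1.24, were at least 2-fold higher in all 4 libraries, and neither was so at matched depth. *Cd101*, at -1.02, -1.06, -0.79 and -1.45, was lower. Of the 12 measured, 6 were higher and 2 lower in all 4, median 0.30. Among 12 costimulatory genes the counts were 3 and 5, median -0.19; *Tnfrsf9*, for 4-1BB, rose to 1711, 1762, 1802 and 1589 CPM, log2 0.58, 0.54, 0.56 and 0.70, while *Crtam* fell, at -1.03, -0.60, -1.19 and -1.39, and others named by level or ratio were *Icos* (-0.21 to 0.30), *Tnfrsf18* (0.03 to 0.17) and *Tnfsf14* (-1.20 to -0.94). Both PD-1 and 4-1BB, markers of T cells that have met antigen, were thus abundant on both sides of the threshold.

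Of 24 transcription factors of effector and exhausted cells, 3 were higher and 12 lower in all 4 libraries, median -0.18. *Irf8* was the one at least 2-fold higher (not at matched depth), with 644, 647, 651 and 622 CPM against 257, 271, 296 and 277, log2 1.29, 1.23, 1.11 and 1.14. *Nr4a1*, an immediate target of the T cell receptor, was the one at least 2-fold lower (not at matched depth), with 139, 200.05, 204 and 249 CPM against 334, 513, 429 and 630.4. The most abundant beside *Irf8* were *Bhlhe40* (-0.25 to 0.11) and *Id2*. *Id2*, at 0.60, 0.26, 0.21 and 0.26, rose slightly and *Eomes*, at -0.89, -1.27, -1.47 and -0.69, fell from a low level. *Socs3* and *Pim1*, both induced by cytokine signals, fell at -1.68, -1.60, -1.57 and -1.26 and -1.03, -1.49, -1.08 and -1.22. Of the 12 feedback genes and Pim kinases, 0 were higher and 7 lower in all 4, median -0.32, with *Stat3* (-0.09 to 0.17), *Cish* (-0.08 to 0.08), *Socs1* (-0.59 to -0.18) and *Pim2* (-1.45 to -0.79). Signalling genes of the T cell receptor were mostly slightly lower, 10 of 15 in all 4 libraries, median -0.23; *Lck* was at -0.08, -0.07, -0.08 and -0.09 and *Sla2*, a brake on receptor signals, at 0.51, 0.53, 0.51 and 0.32, beside *Lat* (-0.32 to -0.18), *Cd2* (-0.62 to -0.41), *Dgka* (-0.86 to -0.56) and *Cd5* (-0.90 to -0.30). *Nr4a1*, *Socs3* and *Pim1* thus stood lower by more than *Lck* or *Lat* did.

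Glycolysis and hypoxia genes were higher as a group: 23 of 26 in all 4 libraries, 1 lower, median 0.55. Their sum was 26051, 21895, 21687 and 19839 CPM in the Gzmc-f-high cells and 16304, 14915, 15277 and 13189.7 in the others. *Bnip3*, a mitophagy gene induced by low oxygen, was at least 2-fold higher in all 4 (not at matched depth), at 1.26, 1.37, 1.14 and 1.28. *Pgk1* had 1491, 1183, 1181 and 1122 CPM against 811, 666, 722 and 573, log2 0.87, 0.82, 0.70 and 0.96, *Gapdh* log2 ratios of 0.67, 0.52, 0.48 and 0.58, and *Hilpda*, for a lipid droplet protein of hypoxic cells, of 1.20, 0.73, 0.95 and 0.47. The highly expressed *Aldoa* (0.50 to 0.63) and *Eno1* (0.52 to 0.70) rose too, so that small steps in many enzymes of 1 pathway added up. *Hif1a*, whose product is controlled mainly as a protein, was lower, at -0.18, -0.39, -0.21 and -0.18. Respiratory chain genes moved far less, 49 of 71 higher in all 4 libraries with a median of 0.13; *Ndufa4* was an exception at -0.75, -0.76, -0.79 and -0.84, and the others named were *Cox8a* (0.10 to 0.16), *Atp5e* (0.06 to 0.10), *Cox4i1* (0.09 to 0.20), *Ndufs5* (0.29 to 0.39) and *Cox5a* (0.26 to 0.35). Ribosomal protein genes were slightly lower, 46 of 77, median -0.12, with *Rpl41* (-0.11 to 0.05), *Rps15a* (0.00 to 0.12), *Rps24* (-0.37 to -0.14), *Rps27* (-0.52 to -0.46), *Rps27l* (0.26 to 0.52) and *Rps21* (-0.40 to -0.22).

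Interferon response genes were lower, 20 of 21 in all 4 libraries and 0 higher, median -0.69. *Ifit1* had 45.8, 66.3, 97.8 and 133 CPM against 128, 162, 229 and 275, log2 -1.31, -1.17, -1.15 and -0.99. *Gbp2* had log2 ratios of -1.07, -1.01, -1.43 and -1.38 and *Isg15* of -0.40, -0.33, -0.46 and -0.61. The deficit ran through the list in every group, with *Ifi27l2a* (-0.63 to -0.25), *Bst2* (-0.56 to -0.41) and *Oasl2* (-1.46 to -1.09). Actin, S100 and annexin genes were higher, 16 of 20, median 0.32: *S100a4* was at 0.83, 0.66, 0.76 and 0.80 and *Anxa2* at 0.89, 0.69, 0.79 and 0.86, against *Lmna*, for lamin A, at -1.06, -0.57, -0.79 and -1.40, and with *Tmsb4x* (0.26 to 0.41), *Tmsb10* (0.29 to 0.39) and *Actb* (0.14 to 0.19). Of 11 heat shock genes, 1 was higher and 5 lower in all 4 libraries, median -0.23; the genes named were *Hspa8* (-0.25 to -0.08), *Hsp90ab1* (-0.17 to 0.00), *Hspa5* (0.04 to 0.25), *Hspa1a* (-1.68 to -0.16), *Hspa1b* (-1.43 to 0.22) and *Hsph1* (-0.60 to 0.18). Cell cycle genes outside the rule, among cells already limited in 5 others, had 11 higher and 4 lower of 21, median 0.14; *Cdkn1a*, for the cell cycle inhibitor p21, was at 1.18, 0.56, 0.49 and 0.81, beside *H2afz* (-0.12 to 0.00), *Tubb5* (-0.33 to -0.14), *Hmgb2* (-0.33 to -0.21), *Tyms* (0.20 to 0.45) and *Tk1* (0.22 to 0.52).

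Markers of other cell types were counted in the same cells. Of 10 NK markers, 4, 3, 4 and 4 were at 0 UMIs and the list summed to 275, 339, 324 and 378 CPM, led by *Fcer1g*, against 183, 153, 169.8 and 192 in the other CD8 T cells, with 3 of 6 genes above the limit on UMIs higher in all 4 libraries and 1 lower; *Ncr1* had 0, 1, 0 and 0 UMIs, *Klra8* and *Klra4* 0, and *Tyrobp*, the adaptor found in nearly every NK cell, 2.42, 3.91, 9.62 and 2.23 CPM. *Klrb1c*, for NK1.1, had 15.3, 10.5, 10.7 and 10.0 CPM, and 118 cells held a UMI of it or of *Ncr1*. *Ncr1*, *Klra8* and *Klra4* were thus at or near 0, while *Fcer1g* was not. Without the cells holding a UMI of *Ncr1* or *Klrb1c*, 24 genes were higher than in the other CD8 T cells, all 24 of those above, and 44 lower, 41 of the 47 among them; *Cd69* and *Pim1* fell short. Receptors of the NK lectin family that CD8 T cells can carry were about level, 3 higher and 4 lower of 10, median 0.12; *Klrd1*, for CD94, had 1114, 1123, 1342 and 1361 CPM, log2 0.30, 0.06, 0.30 and 0.22, and others were *Klrc1* (-0.12 to 0.07), *Klrk1* (-0.43 to -0.16), *Klra5* (0.84 to 1.55), *Klra7* (-1.39 to -0.47) and *Klri2* (-0.03 to 0.60).

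Macrophage markers summed to 309.6, 298, 311 and 328 CPM, against 286, 280.3, 267 and 275 in the other CD8 T cells, over 12 genes (0, 2, 0 and 3 of them at 0), of which *Cst3*, also made by T cells, gave 276, 261, 274 and 286, while *Lyz2* had 2.42, 1.44, 2.24 and 2.51 and *Csf1r* 0.161, 0.206, 0.671 and 0 CPM. CD4+ and regulatory T cell markers summed to 771, 803, 677 and 652 CPM, against 684, 887, 735 and 776, over 6 genes, led by *Ctla4*, also made by activated CD8 T cells, at 563, 608, 506 and 486; *Foxp3* had 45, 24, 12 and 0 UMIs and *Cd4* 14, 4, 13 and 8. *Lyz2*, *Csf1r*, *Foxp3* and *Cd4* thus stood below 10 CPM in every library. Dendritic cell markers summed to 182, 128, 106 and 103 CPM, against 329.6, 259, 221 and 178, over 9 genes, led by *Cd74*, with *Clec9a* and *Flt3* at 0, and B cell markers to 1.13, 0.206, 0.224 and 1.95 over 4 (3, 3, 3 and 3 of them at 0). Neutrophil markers had 0, 0, 0 and 1 UMIs over 5 genes, tumor and stroma markers 11, 17, 11 and 4 over 7, and the 2 measured gamma-delta markers 0. The part of these types other than NK cells in the differences described here was not tested.

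Among the Gzmc-f-high cells themselves, those with 100 or more Gzmc-f UMIs were set against those with 20 to 49 in each library, over 6089 genes with at least 200 UMIs. At least 2-fold higher in all 4 libraries were 6 genes (0.0985%), the 4 of the rule with *Gzmg* and *Fcer1g*, and 0 were lower (0%). *Gzmg* was at 4.23, 3.49, 5.34 and 4.80 on the log2 scale and *Fcer1g* at 2.13, 3.38, 1.996 and 1.002. No other gene reached 2-fold in all 4 libraries over this range. *Gzmb* was at 1.02, 0.37, 0.05 and 0.67, *Prf1* at 0.98, 0.24, 0.55 and 0.69 and *Irf8* at 0.79, 0.47, 0.35 and 0.97, each higher in all 4 libraries. *Pdcd1* was flat at 0.16, -0.17, -0.11 and -0.01 and *Gzma* had no shared direction at -0.96, 0.26, 1.97 and 1.04. Cells with 100 or more UMIs were also deeper, with a median of 15254 UMIs against 11092, and the part of depth was not tested here.

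**Figure D3:**
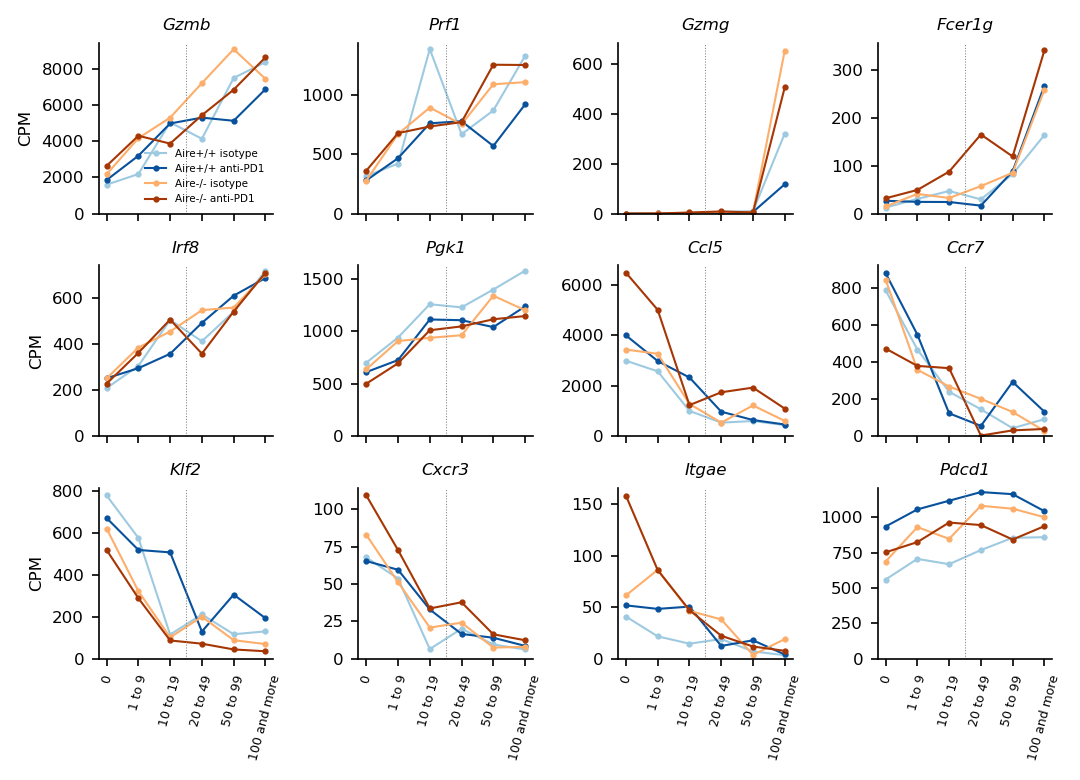
CPM of 12 genes over all gated CD8 T cells of a library, grouped by the sum of *Gzmc*, *Gzmd*, *Gzme* and *Gzmf* UMIs of the cell. The dotted line marks the threshold of 20 UMIs.

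Other genes changed on both sides of the threshold. Over gated cells of the 4 libraries with 0, 1 to 9, 10 to 19, 20 to 49, 50 to 99 and 100 or more Gzmc-f UMIs, *Gzmb* had 2067, 3285, 4821, 5423, 7174 and 7830.2 CPM. *Prf1* had 312, 536, 985, 736, 937 and 1163 and *Pgk1* 610.0, 819, 1094, 1097, 1228 and 1324. *Ccl5* had 4263, 3346, 1424, 860.1, 1058 and 601 and *Cxcr3* 81.5, 59.1, 22.1, 23.6, 11.7 and 8.37. Each of these 5 genes already differed between cells with 0 and cells with 1 to 9 UMIs, short of the threshold. Median depth rose over the bins as well, at 7890, 9215, 10929, 11092, 12006.5 and 15254 UMIs. The parts of depth, of free RNA and of the mix of libraries in each bin were not tested. Interferon response genes summed to 6433, 5817, 5131, 4977, 4668 and 3721 CPM over the 6 bins, falling from each bin to the next, and glycolysis and hypoxia genes to 13672, 16815.5, 20876, 20317, 22134 and 23575. Just outside the threshold, at 15 to 19 UMIs (13, 23, 15 and 16 cells), *Gzmb* had 4132, 4171, 5025 and 4233 CPM, and just inside, at 20 to 24 (21, 16, 21 and 9 cells), 3806, 5986, 10543.5 and 5327. *Prf1* had 1864, 630.3, 1079 and 731 outside and 580.4, 932, 848 and 853 inside, and *Ccr7* 157, 145, 179 and 679 and 71.6, 0, 36.4 and 0. *Ccr7* was lower inside in each library and by far the highest outside in *Aire*-/- mice under anti-PD1, while *Gzmb* and *Prf1* had no shared direction in these few cells.

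Cycling CD8 T cells, which the rule left out, reached the threshold more often: 252, 155, 113 and 129 of 579, 340, 263 and 291 had 20 or more UMIs, or 43.5, 45.6, 43.0 and 44.3%. Those that did were also deeper, at a median of 22316, 22617, 21145 and 21047 UMIs. Their *Gzmf* stood at 6481, 8112, 9065 and 9836 CPM and their *Gzmc* at 7498, 7101, 6979 and 5439.8, so that the ratio of *Gzmf* to *Gzmc* was 0.864, 1.14, 1.30 and 1.81, lower than in the non-cycling cells of the same library in all 4.

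Within the Gzmc-f-high cells, *Aire*-/- was compared with *Aire*+/+ under each treatment over 8095 genes with at least 100 UMIs. At least 2-fold higher under both treatments were 3 genes (0.0371%), *BC002163*, *Gzma* and *Adgrb2*, and at least 2-fold lower was 1 (0.0124%), *Rnaset2b*. By any size, 23.1% of genes were higher under both treatments and 33.3% lower. *Adgrb2* was not 2-fold higher with 50 CPM added or in cells thinned to 5000 UMIs and had under 500 UMIs, and *Rnaset2b* was not 2-fold lower with 50 CPM added, at a threshold of 50 Gzmc-f UMIs or in thinned cells. With 1 CPM added, 9 genes were higher and 6 lower. Few genes thus differed by 2-fold between the genotypes in these cells.

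*BC002163* had 10.96, 13.6, 148 and 117 CPM, with log2 ratios for *Aire*-/- over *Aire*+/+ of 2.92 and 2.43 (isotype first, then anti-PD1). In the other CD8 T cells the ratios were 2.70 and 2.34, and over all barcodes of other libraries they were: spleen CD8+ libraries 1.84 and 2.01; spleen CD45+ libraries 1.70 and 1.87; tumor CD45+ libraries 2.29 and 2.11. *Rnaset2b*, for a lysosomal ribonuclease, had 121, 146, 52.6 and 21.2 CPM, log2 -1.06 and -2.32, with -1.20 and -1.74 in the other CD8 T cells; spleen CD8+ libraries -1.41 and -1.14; spleen CD45+ libraries -1.12 and -1.20; tumor CD45+ libraries -0.66 and -1.17. *Dynlt1b*, a dynein light chain gene, had 23.2, 20.6, 51.0 and 71.3 CPM, log2 0.88 and 1.41; spleen CD8+ libraries 1.21 and 1.27; spleen CD45+ libraries 1.24 and 1.09; tumor CD45+ libraries 1.18 and 1.11. These 3 genes separated the genotypes in every tissue and sort, so their difference was not particular to the Gzmc-f-high cells. *Rnaset2b* (chr17:6978860-6998193) and *Dynlt1b* (chr17:6429530-6440500) lie near each other on chromosome 17, while *Aire* lies on chromosome 10. *BC002163*, *Rnaset2b* and *Dynlt1b* have near-identical copies, and the first 2 had 2 entries each in the count tables, which were summed, so the assignment of their reads is uncertain. *Adgrb2*, for an adhesion receptor, had 7, 9, 73 and 63 UMIs, log2 1.24 and 1.22, with 0.82 and 1.14 in the other CD8 T cells; spleen CD8+ libraries 0.45 and 0.70; spleen CD45+ libraries 0.23 and 0.22; tumor CD45+ libraries 0.26 and 0.81.

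*Gzma* was at 2.80 and 1.40 for *Aire*-/- over *Aire*+/+ in the Gzmc-f-high cells and at 0.79 and 1.02 in the other CD8 T cells. Over all barcodes the values were: spleen CD8+ libraries 2.65 and 2.35; spleen CD45+ libraries -0.13 and 0.62; tumor CD45+ libraries 1.52 and 2.33. Values over all barcodes of CD45+ libraries mix cell types. By the gates above, the tumor CD45+ libraries held 1109, 738, 512 and 180 macrophages and 91, 109, 133 and 216 NK cells. The part of this mixture was not tested. The level of *Gzma* was thus higher in *Aire*-/- mice also among other CD8 T cells, in the spleen CD8+ and in the tumor CD45+ libraries, and not in both pairs of spleen CD45+ libraries. In the Gzmc-f-high cells it rested on the 18, 22, 35 and 31 cells described above. *Gzmg*, at 0.88 and 1.88, also rested on few cells.

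Interferon response genes stood higher in *Aire*-/- cells: 16 of 21 under both treatments and 1 lower, with list medians of 0.54 (isotype) and 0.22 (anti-PD1), against -0.02 and -0.02 over all genes. *Igtp*, an interferon-induced GTPase gene, had 48.2, 58.5, 100.04 and 123 CPM, log2 0.92 and 0.96. *Ifit1* had 45.8, 66.3, 97.8 and 133 CPM, log2 0.95 and 0.91, and *Irf1* 56.3, 87.5, 118 and 145 CPM, log2 0.95 and 0.66. In the other CD8 T cells these genes went the same way, with *Igtp* at 0.61 and 0.78, *Ifit1* at 0.79 and 0.73 and *Irf1* at 0.65 and 0.78. The list summed to 5075, 6355, 6720 and 6842 CPM in those cells and to 3590, 4218, 4417 and 4318 in the Gzmc-f-high cells. Both sums were higher in *Aire*-/- mice under both antibodies, in the Gzmc-f-high cells only slightly so after anti-PD1. Over all barcodes *Ifit1* did not keep this direction. It was at -0.04 and -0.27 in spleen CD8+, 0.30 and -0.17 in spleen CD45+ and 0.57 and -0.11 in tumor CD45+ libraries. *Igtp* and *Irf1* were higher in each of these. Values of the CD45+ libraries mix cell types, as described for *Gzma*, and the part of this mixture was not tested. Glycolysis and hypoxia genes stood lower in *Aire*-/- cells, 21 of 26 under both treatments, medians -0.24 and -0.11. Their sum in the other CD8 T cells, 16304, 14915, 15277 and 13189.7 CPM, was also lower in *Aire*-/- mice under both antibodies. These 2 lists, opposite in Gzmc-f-high against other cells, were thus opposite between the genotypes as well, the other way round, with medians under 2-fold. By the list sums, neither shift was particular to the Gzmc-f-high cells.

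The other genes lowest in *Aire*-/- cells under both treatments were *Nrn1*, for the surface protein neuritin, with 132, 129.7, 62.2 and 47.6 CPM, log2 -0.98 and -1.28; *Rgs1*, a brake on chemokine receptor signals, with 1178, 802, 643 and 474 CPM, log2 -0.86 and -0.75; and the hypoxia gene *Ankrd37*, log2 -1.14 and -0.68. *Snhg3*, a small nucleolar RNA host gene, was at -0.70 and -0.76, *Ccdc184* at -0.70 and -0.70, *Slc16a11*, for a monocarboxylate transporter, at -0.63 and -0.81 and the mitochondrial alanine tRNA gene *TrnA* at -0.90 and -0.85. *Rgs1* was the most abundant of these in every library, and its level fell from *Aire*+/+ isotype to *Aire*-/- anti-PD1 in the order given. Some of these differences were also seen over all barcodes of other libraries. *Snhg3* was at -0.62 and -0.50 in tumor CD45+, -0.27 and -0.50 in spleen CD8+ and -0.34 and -0.40 in spleen CD45+ libraries. *Rgs1*, at -0.57 and -1.22, and *Ankrd37*, at -0.43 and -0.67, were lower in tumor CD45+ libraries. There *Nrn1*, *Slc16a11* and *TrnA* were higher under both treatments, and *Ccdc184* had no shared direction.

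For anti-PD1 over isotype, 0 genes were at least 2-fold higher in both genotypes (0%) and 1 was at least 2-fold lower (0.0124%), *Klra5*. By any size, 31.2% were higher in both genotypes and 20% lower. *Klra5*, for a Ly49 receptor, had 54.98, 18.5, 58.0 and 22.8 CPM, log2 -1.19 and -1.05 in *Aire*+/+ and *Aire*-/- mice, and -0.56 and -0.47 in the other CD8 T cells; it fell short of 2-fold with 50 CPM added, at a threshold of 10 Gzmc-f UMIs and as mean CPM over cells. It belongs to a family of near-identical genes, so that its reads may come from others of the family. With 1 CPM added, 4 genes were higher and 1 lower. Few genes thus differed by 2-fold between the antibodies.

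Highest after anti-PD1 in both genotypes were *Csf2*, for the cytokine GM-CSF, with 37.4, 84.8, 28.9 and 53.5 CPM, log2 1.0 and 0.71; the chemokine gene *Ccl9*, with 12.6, 26.5, 2.69 and 37.0 CPM, log2 0.70 and 1.89; and *Fbxo32*, for a ubiquitin ligase subunit, log2 0.69 and 0.64. *Kdm6b*, for a histone demethylase, was at 0.66 and 0.56, *Itga4*, for the integrin alpha 4 chain, at 0.56 and 1.09, *Calca*, for calcitonin and its related peptide, at 0.54 and 0.70, *Phlda1* at 0.50 and 0.63 and *Gzmk* at 0.49 and 0.81. All were below 100 CPM in every library. The share of cells with a *Csf2* UMI, after thinning to 5000 UMIs, was 5.57, 3.05, 4.18 and 3.25%, lower after anti-PD1 in both genotypes, so that its rise in CPM lay in few cells. For *Ccl9* the share was 2.78, 0.610, 0.965 and 4.47%, lower after anti-PD1 in *Aire*+/+ mice, and in macrophages of the CD45+ libraries, thinned alike, 28.8, 31.2, 30.1 and 32.0%. Lowest beside *Klra5* were the histone gene *Hist1h2bc*, at -0.76 and -0.44, *Rgs1*, at -0.55 and -0.43, the sialyltransferase gene *St6gal1*, at -0.41 and -0.42, and the immediate early gene *Fos*, at -0.49 and -0.39, with *Eif4ebp1*, for a repressor of translation, at -0.37 and -0.42, the agouti gene *a* at -0.36 and -0.87 and *Penk*, for proenkephalin, with 237, 107, 228 and 175 CPM, at -1.07 and -0.36. The share of cells with a *Penk* UMI went the other way, at 8.10, 9.45, 3.54 and 6.50% after thinning, so that its fall in CPM also rested on few cells. Of the 14 cytokine and chemokine genes, 10 were higher in both genotypes and 1 lower, medians 0.23 and 0.57, against 0.02 and 0.02 over all genes. Of 26 glycolysis and hypoxia genes, 0 were higher and 21 lower, medians -0.26 and -0.13. Their sum in the other CD8 T cells, 16304, 14915, 15277 and 13189.7 CPM, was also lower after anti-PD1 in both genotypes.

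The granzymes of the rule chose the cells, and their levels between conditions are given as a description. *Gzmf* was at 0.43 and 0.13 for *Aire*-/- over *Aire*+/+ and at 0.00 and -0.30 for anti-PD1 over isotype, and *Gzmc* at -0.05 and -0.06 and at -0.34 and -0.35. *Gzmd* was at 0.37 and 0.77 and -0.48 and -0.08, and *Gzme* at -0.06 and 0.62 and -0.91 and -0.22. *Gzmb* was at 0.03 and 0.29 and -0.25 and 0.02, and *Prf1* at -0.15 and 0.47 and -0.45 and 0.17. None of these genes reached 2-fold in any of the 4 pairs. *Pdcd1*, whose product the antibody binds, was at 0.36 and -0.15 for anti-PD1 over isotype in *Aire*+/+ and *Aire*-/- mice.

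*Gzmg* and *Gzmb*, which the rule did not use, stood higher in cells chosen on their neighbours, and the promoters of these paralogs were compared (RefSeq, GRCm38.p6, 250 bases before to 50 after the start listed there, all 6 of *Gzmb*, *Gzmc*, *Gzmd*, *Gzme*, *Gzmf* and *Gzmg* matched by symbol). Over this window *Gzmc* was 74.9% identical to *Gzmf*, 77.3% to *Gzmg* and 46.5% to *Gzmb*. The Runx letters TGTGGT or, on the other strand, ACCACA occurred in all 6, and 2 times in each, against 16.8% of 32851 promoters with at least 1 match and 1.81% with at least 2. The AP-1 letters TGANTCA occurred in 1 of the 6, *Gzmb* (7.81% of promoters), the STAT letters TTCNNNGAA in 1, also *Gzmb* (8.3%), the T-box letters GGTGTGA in 0 (3.98%) and the TATA letters TATAAA in 0 (13.6%), each searched on both strands. The windows of *Gzmc*, *Gzmd*, *Gzme*, *Gzmf* and *Gzmg* were 74.9 to 93.4% identical to one another. Their matches are thus not independent and cannot be read as an enrichment over all promoters. A match is a description of letters and not a bound site. The *Gzmc* window is that of the promoter table, while the RefSeq span of the gene reaches further, to position 56241647, so that the window lies within that span. The sequences of 4 of them are given 5′ to 3′ to show the shared pair of Runx letters, with Runx and AP-1 matches in capitals, which do not overlap.
Gzmc promoter (chr14:56234608-56234907, minus strand): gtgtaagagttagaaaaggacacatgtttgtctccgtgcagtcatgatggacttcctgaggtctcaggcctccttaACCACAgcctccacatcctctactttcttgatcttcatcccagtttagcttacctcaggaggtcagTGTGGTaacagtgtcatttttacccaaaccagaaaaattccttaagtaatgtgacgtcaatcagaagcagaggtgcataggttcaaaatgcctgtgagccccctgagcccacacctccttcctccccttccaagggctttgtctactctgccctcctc
Gzmf promoter (chr14:56211358-56211657, minus strand): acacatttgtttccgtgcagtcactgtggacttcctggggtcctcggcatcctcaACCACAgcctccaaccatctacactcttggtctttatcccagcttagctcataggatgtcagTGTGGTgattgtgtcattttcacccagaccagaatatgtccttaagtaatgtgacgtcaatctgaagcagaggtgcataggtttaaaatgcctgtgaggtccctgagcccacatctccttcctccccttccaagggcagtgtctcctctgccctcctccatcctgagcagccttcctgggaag
Gzmg promoter (chr14:56159530-56159829, minus strand): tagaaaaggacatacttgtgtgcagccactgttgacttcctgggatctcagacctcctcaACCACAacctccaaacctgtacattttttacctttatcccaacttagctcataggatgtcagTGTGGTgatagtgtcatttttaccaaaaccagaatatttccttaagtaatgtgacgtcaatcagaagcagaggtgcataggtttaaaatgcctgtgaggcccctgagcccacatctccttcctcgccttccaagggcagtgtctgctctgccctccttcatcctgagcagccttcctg
Gzmb promoter (chr14:56262285-56262584, minus strand): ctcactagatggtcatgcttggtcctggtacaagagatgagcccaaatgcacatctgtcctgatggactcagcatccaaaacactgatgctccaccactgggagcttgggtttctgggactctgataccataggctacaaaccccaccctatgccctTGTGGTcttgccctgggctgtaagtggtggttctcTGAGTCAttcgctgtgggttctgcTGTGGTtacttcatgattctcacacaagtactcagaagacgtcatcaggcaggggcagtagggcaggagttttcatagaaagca

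In the *Gzmc*, *Gzmf* and *Gzmg* windows the first match is on the opposite strand to the second, at positions 77 and 143 of the *Gzmc* window, 56 and 118 of *Gzmf* and 61 and 123 of *Gzmg*, counted from 1 at the 5′ end. In *Gzmb* both are on the strand of the gene, at 158 and 217. In *Gzmd* the matches are at 77 and 139 and in *Gzme* at 76 and 138, again with the first on the opposite strand. *Gzmc*, *Gzmd*, *Gzme*, *Gzmf* and *Gzmg* thus share the arrangement of the pair, and *Gzmb* does not. *Gzmn* was not searched.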

How the data were processed

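The count tables of UMIs per gene and cell barcode were made by the authors from 10x libraries and used as deposited (a 3′ kit by the sample records, while the study also describes a 5′ kit); gene positions are those of GRCm38. Of 25127 entries, 27 vector entries were dropped (at most 2.56e-05% of the UMIs of a tumor CD8+ library), and entries of 1 symbol were summed to 24469 symbols. No cell was removed beyond the authors' barcodes, and doublets were handled through the limits on C1q genes and *Siglech* alone, with the deepest 5% of cells left out as an alternative. UMIs were summed over cells of a library and divided by their total; 1303 Gzmc-f-high and 5534 other CD8 T cells were used. Analyses used Python 3.11.15, numpy 2.4.6, scipy 1.17.1, pandas 2.3.3 and matplotlib 3.10.9. The cells and the gene lists were chosen with earlier results of these data known. Genes were named by a rule: all genes that chose the cells; up to 6 of each list by level (CPM) or by absolute median log2 ratio; 10 in each direction by the smallest of 4 log2 ratios; and 8 in each direction by the smaller of 2 log2 ratios between conditions. Other names, among them *Gzma*, *Gzmk*, *Serpinb9*, *Havcr2*, *Entpd1*, *Tyrobp*, *Lyz2* and *Hif1a*, were chosen after their values were seen or as defining markers, and a gene that the rule names is not reported here. Alternatives covered thresholds, depth, pseudocounts, filters, scaling, cell weights, cells with *Ncr1* or *Klrb1c* and the sort. The lists held the numbers of measured genes given with each; of 6 gamma-delta markers 2, and of 5 B cell markers 4, had an entry.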

Additional observations from a re-analysis of the deposited data

Results flagged for a closer look

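Of 158 named genes checked within the Gzmc-f-high cells, 4 moved in opposite directions after anti-PD1 in the 2 genotypes, by at least 0.5 on the log2 scale in each. These were *Ccr7*, with log2 ratios of anti-PD1 over isotype of 0.59 in *Aire*+/+ and -1.06 in *Aire*-/- mice, *Gstm5*, with -0.52 and 0.69, *Hspa1a*, with 1.65 and -0.71, and *Xcl1*, with 0.88 and -1.54. Each value compares 1 library with 1 other, so the difference between the genotypes was not tested. No sample was compared with others of its group, since each group held 1 library.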

How the results depend on the processing

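The ratio of shares for *Aire*-/- over *Aire*+/+ mice after anti-PD1, 0.735, changed direction in the CD45+ sort, at 1.43 (0.816 to 2.69), and moved to 0.873 (0.737 to 1.03) with cells thinned to 5000 UMIs and a threshold of 10, a setting that left out shallower cells, among them 316 other CD8 T cells of *Aire*-/- and 94 of *Aire*+/+ mice after anti-PD1. The CD45+ sort also moved the ratio for anti-PD1 over isotype to 0.585 in *Aire*+/+ and to 0.918 in *Aire*-/- mice; the cause was not tested. Under the other alternatives these 3 ratios, and under all 10 the isotype ratio (0.915 to 1.05), stayed within the counting interval of the reported value. Of 40 single shares under alternative thresholds and gates, 21 moved.

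Against other CD8 T cells, 13 genes were higher and 20 lower with other cells of matched depth, 49 and 150 with a pseudocount of 1 CPM, and 13 and 7 with 50 CPM, in place of 24 and 47; in 16 of 19 settings each count stayed within 1.5 times the reported one, and leaving out each library in turn gave 24 to 26 and 48 to 56. The log2 ratios of named genes gave 513 values, of which 417 stayed close and 96 moved; 0 genes past 2-fold changed direction, and the median of *Gzma*, 0.22, fell to -0.09 with mean CPM over cells and to -0.03 without the deepest cells. Between genotypes, a pseudocount of 1 gave 9 genes higher and 6 lower; 0 were lower with a pseudocount of 50, a threshold of 50 UMIs or cells thinned to 5000 UMIs. For anti-PD1, a pseudocount of 1 gave 4 genes higher, and 0 were lower with a pseudocount of 50, a threshold of 10 UMIs or mean CPM over cells. The cause was not tested. Of 144 values of named genes for each comparison, 103 (genotype) and 111 (antibody) stayed close, and 0 genes past 2-fold changed direction. The comparison of cells with 100 or more against 20 to 49 Gzmc-f UMIs, whose alternatives were chosen after seeing the data, gave 5 to 6 genes higher and 0 lower. With other cells of matched depth 13 of the 24 and 18 of the 47 genes kept a 2-fold difference, and with cells thinned to 5000 UMIs, and shallower ones left out, 23 and 36; the cause was not tested. Without cells holding a UMI of *Ncr1* or *Klrb1c* 24 and 41 kept it.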
